A study of Mus musculus with 18 samples.

Results

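Potassium channel subunit genes were followed in whole mouse retina after injury of the optic nerve, the tract that carries the axons of retinal ganglion cells to the brain. Members were all genes on the array whose symbol starts with Kcn and a further letter. This rule uses names and not values, but it was chosen with earlier results of these data known. Of 96 such genes on the array, 79 had a Cy5 signal well above background on at least 3 of the 18 arrays and were tested, among 25553 genes tested in all. The other 17 did not reach that minimum and were not measured, among them the genes chosen for a known role Kcnip2, Kcnn1, Kcnj2 and Kcnk2. Of the 79 members, 61 were above background on all 18 arrays and 18 on only some of them. Most members encode pore-forming or accessory subunits, while Kcnrg encodes a regulator of channel assembly. Kcnmb4os1 and Kcnq1ot1 are noncoding RNAs that are named after channel genes and encode no subunit.

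Potassium channels let potassium flow out of the cell, which sets the resting voltage of neurons, ends each action potential and spaces the next one. Voltage-gated subunits assemble as tetramers, often mixing members of a subfamily, and accessory subunits change their gating or carry them to axons, dendrites and terminals. In the retina, ganglion cells fire trains of spikes shaped by such channels, photoreceptors use silent subunits that modify the channels of their inner segments, and Müller glia carry potassium away from active synapses through inward rectifiers.

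In every mouse Map3k12, the gene of the kinase DLK, was floxed, and every mouse received tamoxifen when 10 to 12 weeks old. Cre-positive mice also carried a Cre recombinase fused to the estrogen receptor (Cre-ERT) under the CAG promoter, which is active in many tissues, so the deletion was not limited to neurons or to the retina. Cre-negative littermates had the floxed alleles and the tamoxifen but no Cre. The groups were Cre-positive crushed retinas (5 arrays), Cre-positive uncrushed retinas (5 arrays), Cre-negative crushed retinas (3 arrays) and Cre-negative uncrushed retinas (4 arrays), all taken 3 days after the crush, with the uninjured eye as the uncrushed control. A further array was labelled uncrushed in its title and crushed in its description, so it was left out of the comparisons. The labels do not tie eyes to animals, so a crushed and an uncrushed retina of the same mouse could not be paired, and p-values measure the spread between these samples.

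Every array compared retinal RNA in Cy5 with a universal mouse reference RNA in Cy3. The values below are log2 ratios of Cy5 over Cy3 for 1 probe per gene, so the difference between groups is a log2 change, and a level of one gene is not set against that of another. The share of probes detected in Cy5 was 68.0% to 76.2% per array. The median Cy5 intensity was 240 to 297, where the local background was 72.5 to 84.0, and no spot was saturated. Map3k12 itself averaged 2.04 ± 0.20 in Cre-positive crushed and 1.998 ± 0.165 in Cre-positive uncrushed retinas, against 2.51 ± 0.17 in Cre-negative crushed and 2.43 ± 0.16 in Cre-negative uncrushed retinas (SD, n = 5, 5, 3 and 4). Its Cre effect was -0.47 in crushed (limma adjusted p = 0.061) and -0.43 in uncrushed retinas (adjusted p = 0.88), and the probe need not lie in the deleted part. Esr1, part of which is fused to the Cre, was 3.71 higher in Cre-positive than in Cre-negative crushed retinas (adjusted p = 3.1e-10) and 3.05 higher in uncrushed ones (adjusted p = 6e-09). Replicate 5 of the Cre-positive crushed group was rich in lens markers (mean log2 ratio 1.87, against 0.30 at the lowest array of that group), and replicate 4 of the Cre-positive uncrushed group in markers of cornea, iris and ciliary body (1.54, against -0.90 at the lowest).

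In retinas with DLK intact, 5 of the 79 members fell after the crush and none rose. These were Kcnd2, Kcnj5, Kcns3, Kcna2 and Kcnc1, 6.33% of the members, where 2.13% of all genes passed in either direction, 1.33% as higher and 0.794% as lower (limma adjusted p under 0.05). At an unadjusted p under 0.05 the members counted 15 lower and 2 higher, 17 of 79, against 13.3% of all genes in either direction. The median log2 change of the members was -0.07, against 0.0016 over all genes tested, and 58 of 79 estimates lay below 0 (73.4%, against 49.4% of all genes).

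Kcnd2, a pore subunit of the rapidly inactivating A-type channels of neuronal somata and dendrites, fell by 1.23 on the log2 scale in Cre-negative retinas. Its log2 ratios were 3.12, 3.07 and 2.80 in Cre-negative crushed retinas, against 4.25, 4.37, 4.15 and 4.16 in Cre-negative uncrushed retinas. The groups did not overlap, and every crushed array was more than 1 log2 unit below the lowest uncrushed one. The change of -1.23 ± 0.11 (SE; 95% interval -1.46 to -1.01; limma adjusted p = 9.1e-07) is a ratio of 0.425 on this scale. With the scanner software's processed signals it was -2.17 (adjusted p = 0.041), so the size of the fall depended on the signals used while its direction and call did not. The Cy3 reference was not above background at this probe on any of the 17 arrays. Its processed signal still averaged 29.5 in crushed and 11.4 in uncrushed Cre-negative retinas. Processed Cy5 intensity averaged 1450 ± 117 in crushed and 3200 ± 263 in uncrushed Cre-negative retinas (SD, n = 3 and 4), so both channels entered the processed ratio. The reference was likewise not above background on any of these arrays for Kcns3, Kcna2 and Kcnc2.

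Kcnj5, a G protein-gated inward rectifier subunit, also fell in Cre-negative retinas. Its log2 ratios were 2.89, 2.81 and 2.75 in crushed retinas, against 3.30, 3.36, 3.15 and 3.28 in uncrushed retinas, with no overlap. The change was -0.46 ± 0.07 (SE; limma adjusted p = 0.00071). Kcns3 encodes a silent subunit that forms no channel alone and modifies other voltage-gated channels. It read 0.53, 0.44 and 0.58 in Cre-negative crushed retinas, against 1.10, 0.91, 0.85 and 1.01 in Cre-negative uncrushed retinas. These groups did not overlap either, and the change was -0.45 ± 0.08 (SE; limma adjusted p = 0.0045). Kcns3 was dim, with a mean processed Cy5 intensity of 69.9 in crushed and 140 in uncrushed Cre-negative retinas, and the background offset pulls the ratios of such spots toward 0.

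Kcnd2, Kcnj5 and Kcns3 were the members called both after the crush in Cre-negative retinas and between genotypes among crushed retinas, so the 250 bases before their annotated starts are shown, 5′ to 3′ on the gene's strand (RefSeq, build GRCm38.p6). They lie at chr6:21215096-21215345 (plus strand) for Kcnd2, chr9:32344345-32344594 (minus strand) for Kcnj5, and chr12:11150843-11151092 and chr12:11150374-11150623 (minus strand) for the 2 starts of Kcns3. Capitals mark matches, on either strand, to a GC box (GGGCGG) or an E-box (CANNTG).
Kcnd2: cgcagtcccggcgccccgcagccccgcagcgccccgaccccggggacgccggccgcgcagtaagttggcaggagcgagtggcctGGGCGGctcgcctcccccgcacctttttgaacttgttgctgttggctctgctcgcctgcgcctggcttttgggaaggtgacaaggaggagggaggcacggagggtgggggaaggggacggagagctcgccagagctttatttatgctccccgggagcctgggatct
Kcnj5: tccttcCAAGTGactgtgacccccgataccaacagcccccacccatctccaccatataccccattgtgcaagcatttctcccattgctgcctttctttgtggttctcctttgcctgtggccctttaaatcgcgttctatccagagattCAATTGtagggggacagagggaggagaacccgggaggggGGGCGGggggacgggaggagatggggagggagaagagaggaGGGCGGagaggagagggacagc
Kcns3 start 1: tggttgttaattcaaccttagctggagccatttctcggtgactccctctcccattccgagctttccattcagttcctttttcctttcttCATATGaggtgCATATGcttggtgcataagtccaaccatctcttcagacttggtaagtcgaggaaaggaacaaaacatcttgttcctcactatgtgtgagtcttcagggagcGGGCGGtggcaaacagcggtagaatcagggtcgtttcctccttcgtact
Kcns3 start 2: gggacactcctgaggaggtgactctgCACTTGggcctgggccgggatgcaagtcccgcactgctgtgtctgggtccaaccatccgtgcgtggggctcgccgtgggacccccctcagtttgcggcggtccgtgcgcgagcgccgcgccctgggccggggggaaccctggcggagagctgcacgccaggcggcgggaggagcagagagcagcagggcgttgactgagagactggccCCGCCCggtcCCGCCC

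The Kcnd2 window held 1 GC box and no E-box, the Kcnj5 window 2 of each, and each Kcns3 window at least 1 of each. GC content was 68.8% before Kcnd2, 58.0% before Kcnj5, and 47.2% and 72.8% before the starts of Kcns3, against a median of 52.4% over all 32851 windows of this length in the table and 58.0% over the 75 windows of the 55 members with an entry. A GC box occurred in 33 of the 75 member windows (44.0%), against 32.7% of all windows, and an E-box in 50 of 75 (66.7%), against 66.2%. An AP-1 site (TGANTCA) occurred in 3 member windows (4.0%), against 6.75% of all windows, and a TATA box (TATAAA) in 3, against 12.4%. A cyclic AMP response element (TGACGTCA) and a C/EBP-ATF composite (TGATGCAA) matched no member window, against 1.55% and 0.791% of all windows. No window of the 6 members called in any comparison held any of the last 4 motifs. A match or its absence describes these letters in this window and nothing further.

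Kcna2, a pore subunit of the low-threshold channels beside the nodes of myelinated axons, read 0.80, 0.42 and 0.69 in Cre-negative crushed retinas, against 1.17, 1.39, 1.18 and 0.96 in Cre-negative uncrushed retinas. The arrays did not overlap, and the change was -0.54 ± 0.13 (SE; limma adjusted p = 0.041). Kcnc1, a pore subunit of the fast channels that allow high firing rates, read 3.34, 3.40 and 3.13 in Cre-negative crushed retinas, against 3.66, 3.63, 3.54 and 3.69 in Cre-negative uncrushed retinas, again without overlap. Its change was -0.34 ± 0.08 (SE; limma adjusted p = 0.044), and its other 2 probes gave smaller estimates, the smallest -0.13. Both genes passed narrowly. Without Cre-negative uncrushed replicate 1 or 2, Cre-negative crushed replicate 1 or 3 or Cre-positive crushed replicate 2, neither passed and the count of called members was 3. Without Cre-positive crushed replicate 1 or Cre-negative uncrushed replicate 3 neither passed either, and the count was 4, with Kcnip4 or Kcnc2 called in their place. With processed signals the Kcna2 change was -1.22 and missed the threshold (adjusted p = 0.11). The count was 2 (Kcnd2 and Kcns3) with processed signals and also with the array of disagreeing labels placed among Cre-negative uncrushed retinas.

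**Figure D1:**
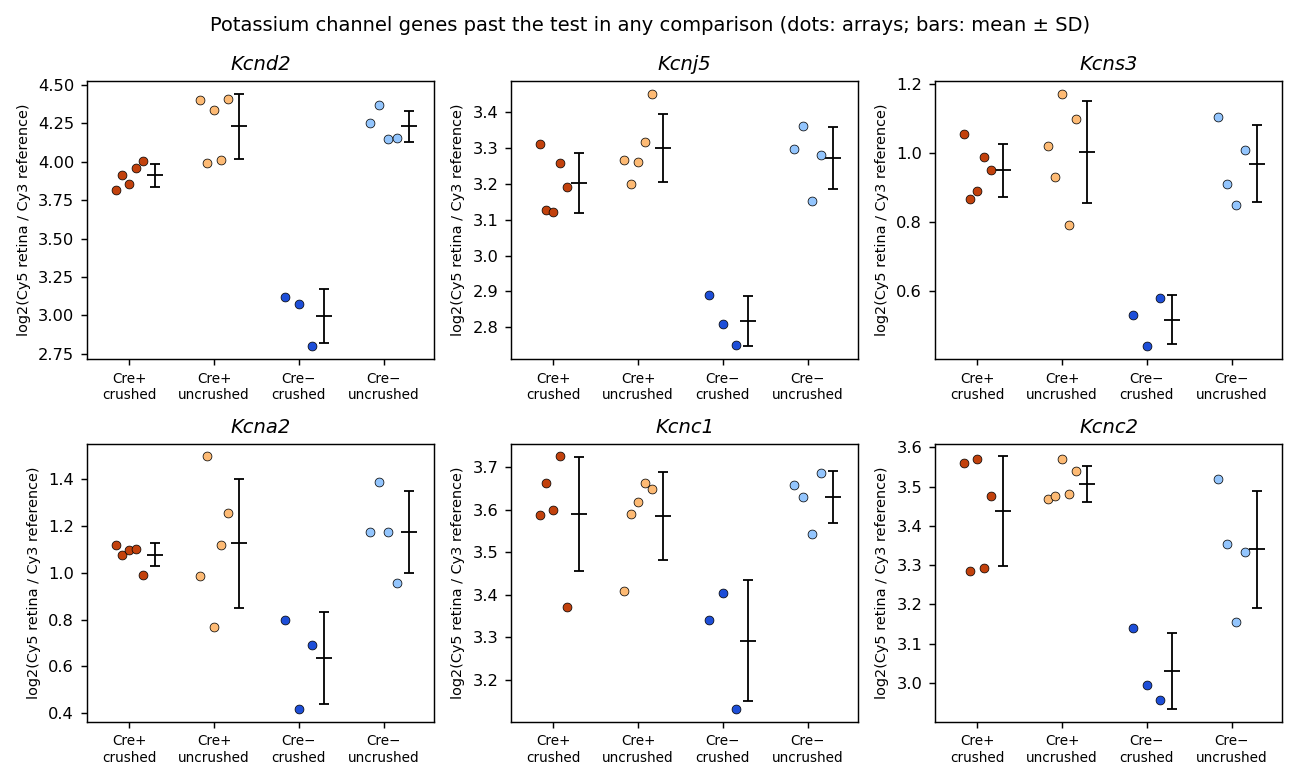
Log2 ratio of Cy5 retina over Cy3 reference on every array (dots) for the 6 members past the test in any comparison, in Cre-positive crushed, Cre-positive uncrushed, Cre-negative crushed and Cre-negative uncrushed retinas, with bars for mean ± SD. Kcnd2 lies at 2.80 to 3.12 on the 3 Cre-negative crushed arrays, against 3.82 to 4.01 in Cre-positive crushed retinas. The 6 members were picked by the test on these arrays, so groups that lie apart in a panel add no support. Each panel has its own vertical range.

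In Cre-positive retinas no member passed the test after the crush, where 0.763% of all genes passed, 0.677% as higher and 0.0861% as lower. At an unadjusted p under 0.05, 2 members were higher and 7 lower, 9 of 79 against 9.52% of all genes. The median change of the members was -0.01, and 45 of 79 estimates lay below 0 (57%, against 49.9% of all genes). Kcnd2 read 3.82, 3.92, 3.86, 3.96 and 4.01 in Cre-positive crushed retinas, against 4.41, 3.99, 4.34, 4.01 and 4.41 in Cre-positive uncrushed retinas. The highest crushed array overlapped the lowest uncrushed one, and the estimate was -0.32 (95% interval -0.51 to -0.13; limma adjusted p = 0.13). The other members called in Cre-negative retinas had estimates in Cre-positive retinas of -0.10 for Kcnj5 (adjusted p = 0.63), -0.05 for Kcns3 (adjusted p = 0.85), -0.05 for Kcna2 (adjusted p = 0.92) and 0.004 for Kcnc1 (adjusted p = 0.99). A p that misses the threshold does not show that these genes stayed level, and the 95% interval for Kcna2 reached -0.28. On Cy5 intensity alone, without the reference channel, Kcnd2 and Kcnj5 passed as lower in Cre-positive retinas too.

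The test of the difference between the crush effects (Cre-positive minus Cre-negative) called 1 member, Kcnd2, where 0.415% of all genes passed in either direction and 0.133% as higher. Kcnd2 was 0.91 ± 0.14 less reduced in Cre-positive retinas (SE; 95% interval 0.62 to 1.21; limma adjusted p = 0.0023). For the other 4 members that fell in Cre-negative retinas the difference missed the threshold, at 0.36 for Kcnj5 (adjusted p = 0.13), 0.40 for Kcns3 (adjusted p = 0.19), 0.49 for Kcna2 (adjusted p = 0.41) and 0.34 for Kcnc1 (adjusted p = 0.35). At an unadjusted p under 0.05, 10 members were higher and 3 lower, 13 of 79 against 8.38% of all genes. With processed signals the Kcnd2 difference was 1.46 and lost its call (adjusted p = 0.75), and it lost it too with the disputed array among Cre-negative uncrushed retinas.

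**Figure D2:**
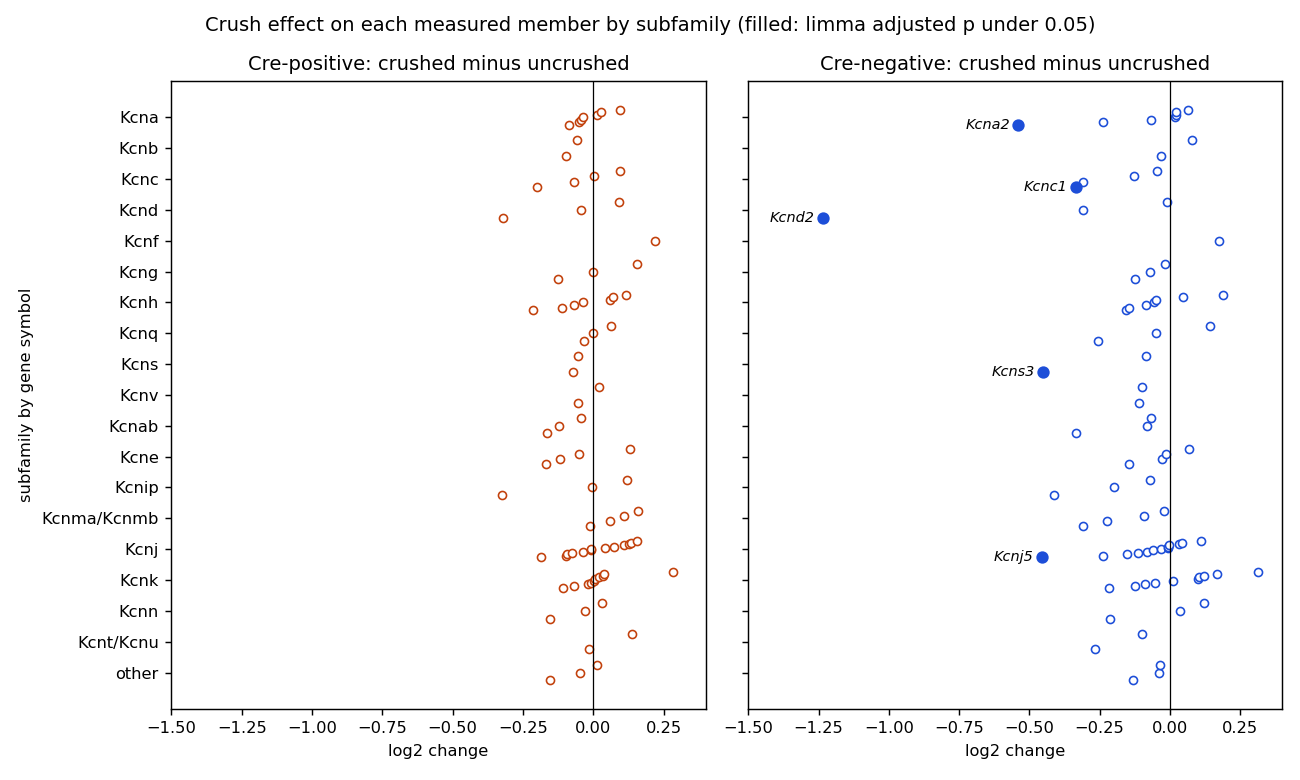
Log2 change after crush (crushed minus uncrushed, horizontal axis) of each of the 79 measured members, by subfamily, in Cre-positive (left) and Cre-negative retinas (right); filled points passed limma's test at an adjusted p under 0.05. The 5 filled points, all in Cre-negative retinas, lie in 5 different subfamilies, and the other members of those subfamilies lie closer to 0.

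Between genotypes, 4 members were higher in Cre-positive than in Cre-negative crushed retinas and none was lower (5.06% of the members, where 1.15% of all genes passed, 0.603% as higher and 0.552% as lower). These were Kcnd2 (0.92 ± 0.10, SE; adjusted p = 3.2e-05), Kcns3 (0.43 ± 0.08; adjusted p = 0.0072), Kcnc2 (0.41 ± 0.08; adjusted p = 0.016) and Kcnj5 (0.39 ± 0.07; adjusted p = 0.0037), all by limma. Kcnj5 read 3.31, 3.13, 3.12, 3.26 and 3.19 in Cre-positive crushed retinas, against 2.89, 2.81 and 2.75 in Cre-negative crushed retinas. Kcns3 read 1.05, 0.87, 0.89, 0.99 and 0.95 in Cre-positive crushed retinas, against 0.53, 0.44 and 0.58 in Cre-negative crushed retinas. For both genes, as for Kcnd2, no Cre-positive crushed array reached down to a Cre-negative crushed one.

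Kcnc2, a close relative of Kcnc1 found in fast-spiking neurons, read 3.56, 3.29, 3.57, 3.29 and 3.48 in Cre-positive crushed retinas, against 3.14, 2.99 and 2.96 in Cre-negative crushed retinas, without overlap. After the crush in Cre-negative retinas its estimate was -0.31 and missed the threshold (adjusted p = 0.076). The crush effect in Cre-negative retinas and the Cre effect in crushed retinas share the 3 Cre-negative crushed arrays, so their calls on Kcnd2, Kcnj5 and Kcns3 are not independent of each other. Without Cre-negative crushed replicate 2, only Kcnd2 and Kcnj5 of the members passed the Cre effect. With processed signals no member passed it, at 1.42 for Kcnd2 (adjusted p = 0.22) and 0.95 for Kcns3 (adjusted p = 0.088). With slide as a fixed block only Kcnd2 passed (adjusted p = 0.0018), and the estimates were 0.35 for Kcnj5, 0.38 for Kcns3 and 0.35 for Kcnc2.

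In uncrushed retinas no member differed between genotypes, where 0.0117% of all genes passed, and at an unadjusted p under 0.05, 3 members were higher and 3 lower (6 of 79, against 5.58% of all genes). Kcnd2 averaged 4.23 ± 0.21 in Cre-positive and 4.23 ± 0.10 in Cre-negative uncrushed retinas (SD, n = 5 and 4), and the difference of 0.002 had a 95% interval of -0.20 to 0.20. The intervals for Kcnj5 (-0.10 to 0.15) and Kcns3 (-0.12 to 0.19) likewise spanned 0 in uncrushed retinas, while that of Kcnc2 was 0.01 to 0.33 before adjustment (adjusted p = 0.88).

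**Figure D3:**
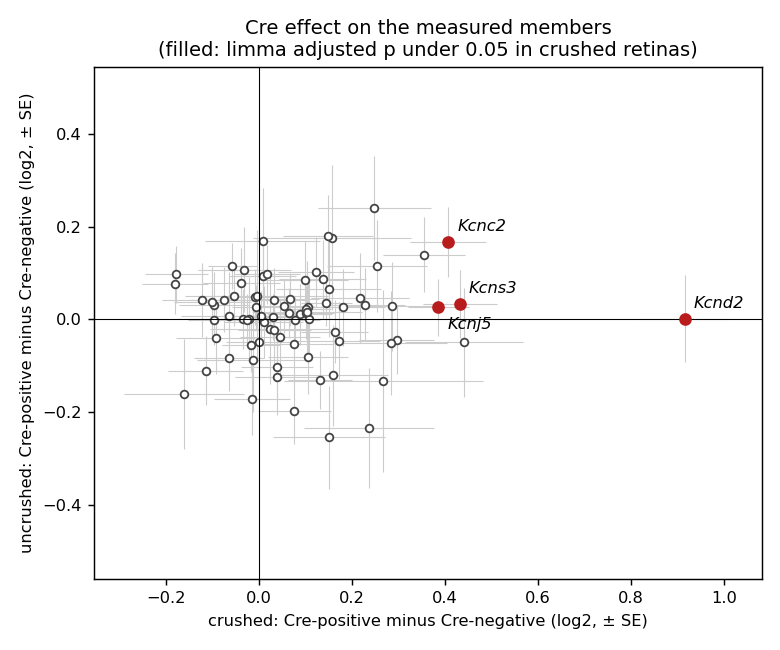
Cre effect (Cre-positive minus Cre-negative, log2 ± SE) on each measured member in crushed retinas (horizontal axis) and in uncrushed retinas (vertical axis), on equal scales; filled points passed limma's test in crushed retinas. Kcnd2 lies at 0.92 in crushed and 0.002 in uncrushed retinas, and no member passed the test in uncrushed retinas.

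Arrays sat on 5 slides. Within each slide the crushed retinas lay at other positions than the uncrushed ones, so position and crush cannot be told apart. On slides 2, 3 and 4, which held both genotypes, Cre-positive retinas lay at positions 1 and 2 and Cre-negative ones at 3 or 4. Slide 1 held only Cre-positive and slide 5 only Cre-negative retinas. Within a slide, position and genotype thus cannot be told apart either, which also limits the Cre effects and the interaction. In Cre-negative retinas, the crushed minus uncrushed difference of Kcnd2 within a slide was -1.57, -1.04 and -1.07 on the 3 slides that held both. In Cre-positive retinas it was -0.27, -0.40, -0.17 and -0.49 on 4 slides. All 7 values were below 0, and each Cre-negative value was lower than every Cre-positive one. Kcnj5, Kcns3, Kcna2 and Kcnc1 were below 0 on all 3 slides in Cre-negative retinas, at -0.61, -0.39 and -0.35 for Kcnj5. For these genes and Kcnd2 the Cre-negative groups did not overlap. The signs within slides in Cre-negative retinas were thus fixed by the array values above and add no support. The gap between the genotypes for Kcnd2 rests on the same arrays as the interaction test, so it adds none either. Only slides 2 and 3 held both pairs. With slide as a fixed block the Kcnd2 crush effect in Cre-negative retinas was -1.22 (limma adjusted p = 3.3e-05), and that of Kcna2 missed the threshold at -0.53 (adjusted p = 0.090).

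**Figure D4:**
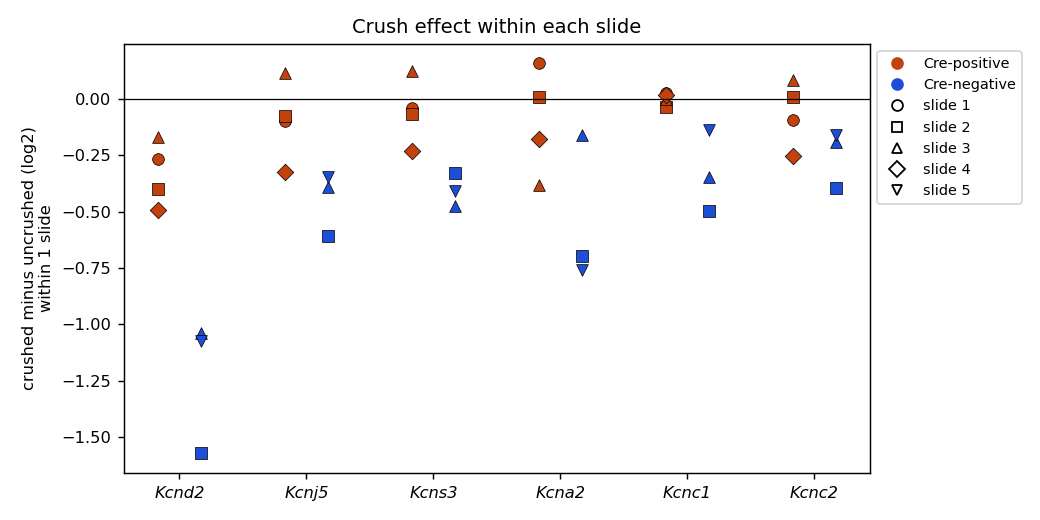
Crushed minus uncrushed difference in log2 ratio within each slide, for the 6 members past the test in any comparison, in Cre-positive (left of each pair) and Cre-negative retinas (right); symbols stand for slides. Kcnd2 lies between -1.57 and -1.04 in Cre-negative retinas and between -0.49 and -0.17 in Cre-positive retinas.

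Of 40 genes for voltage-gated pore subunits, 34 were measured, and 4 of them fell after the crush in Cre-negative retinas, where 0.794% of all genes fell. In this class 25 of 34 estimates lay below 0, beside 73.4% of all members and 49.4% of all genes. Within the A-type subfamily, Kcnd3 had an estimate of -0.31 in Cre-negative retinas (adjusted p = 0.61), with widely spread arrays at 5.49, 5.83 and 5.51 in crushed retinas, against 5.73, 6.38, 5.38 and 6.20 in uncrushed retinas. Kcna1, which joins Kcna2 in axonal channels, had an estimate of -0.24 (adjusted p = 0.27), and Kcna4, an A-type relative, of 0.02 (adjusted p = 0.95). The 7 measured Kcna members ranged from -0.54 to 0.06 with a median of 0.02, so the Kcna2 change was not shared by the subfamily's median. That median rests on 1 probe per gene. A second, dimmer Kcna6 probe gave -0.26 (limma unadjusted p = 0.0017), where the probe used gave 0.02. All 4 Kcnc members had estimates below 0 in Cre-negative retinas, from -0.34 to -0.05 (median -0.22).

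Kcnq3, a subunit of the M-type channels that restrain repetitive firing, had a Cre-negative crush estimate of -0.05 (adjusted p = 0.85) and was above background on few arrays. Kcnv2, a silent subunit of photoreceptors, read 7.87, 7.78 and 7.80 in Cre-negative crushed retinas, against 8.04, 7.97, 7.74 and 7.96 in Cre-negative uncrushed retinas, and these overlapped. Among the ether-a-go-go relatives, Kcnh1 (-0.06), Kcnh2 (-0.16) and Kcnh3 (0.19) missed the threshold in Cre-negative retinas, with adjusted p of 0.84, 0.52 and 0.26. Kcng4, another silent subunit, had an estimate of -0.13 there (adjusted p = 0.74).

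Accessory subunits were measured for 13 of 16 genes, and none passed in any comparison. In Cre-negative retinas 12 of the 13 crush estimates lay below 0 (median -0.08), and in Cre-positive retinas 9 of 13 (median -0.04). Over all members 73.4% and 57% of estimates lay below 0 in these comparisons, and over all genes 49.4% and 49.9%. Kcnip4 binds Kcnd-type pore subunits and slows their inactivation. It read 4.08, 4.52, 4.66, 4.57 and 4.53 in Cre-positive crushed retinas, against 4.72, 4.90, 4.81, 4.78 and 4.77 in Cre-positive uncrushed retinas. In Cre-negative retinas it read 4.45, 4.43 and 4.08 when crushed, against 4.57, 4.75, 4.71 and 4.91 when uncrushed. Neither pair of groups overlapped, yet the estimates of -0.33 (limma adjusted p = 0.18) and -0.41 (adjusted p = 0.089) missed the threshold. A second Kcnip4 probe gave 0.13 in Cre-positive and -0.51 in Cre-negative retinas, so the probes disagreed in Cre-positive retinas.

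Kcnip1, of the same family, had a Cre-negative estimate of -0.20 (adjusted p = 0.33). Kcnab2 and Kcnab3 encode beta subunits of Kcna-type channels, and their Cre-negative estimates were -0.07 (adjusted p = 0.81) and -0.34 (adjusted p = 0.16). The calcium-activated channel's beta subunits Kcnmb2 and Kcnmb4 had Cre-negative estimates of -0.31 (adjusted p = 0.37) and -0.02 (adjusted p = 0.93). Kcne2 and Kcne1l (also named Kcne5), small single-span subunits, had estimates of -0.01 (adjusted p = 0.97) and -0.14 (adjusted p = 0.48).

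Of 15 inward rectifier genes 13 were measured, and Kcnj5 was the one called. Kcnj10 carries most of the potassium conductance of Müller glia. It read 5.83, 5.79, 5.84, 5.95 and 5.99 in Cre-positive crushed retinas, against 5.72, 5.86, 5.51, 5.91 and 5.73 in Cre-positive uncrushed retinas. In Cre-negative retinas it read 5.77, 5.42 and 5.69 when crushed, against 5.72, 5.78, 5.31 and 5.72 when uncrushed. The groups overlapped in both genotypes, and the crush estimates were 0.13 (95% interval -0.06 to 0.33; adjusted p = 0.69) in Cre-positive and -0.01 (-0.24 to 0.23; adjusted p = 0.99) in Cre-negative retinas. Its partner Kcnj16 gave 0.13 (adjusted p = 0.47) and 0.04 (adjusted p = 0.85) in the same comparisons.

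Kcnj13, the inward rectifier of the pigment epithelium, was 0.25 higher in Cre-positive than in Cre-negative crushed retinas (adjusted p = 0.38) and 0.24 higher in uncrushed ones (adjusted p = 0.88), with neither past the threshold. The 8 pigment epithelium markers, none of them called, had a median Cre effect of 0.65 in crushed retinas and 0.21 in uncrushed retinas, and their part in the Kcnj13 values was not tested. Kcnj8, of vascular ATP-sensitive channels, had a Cre effect of -0.16 in both crushed (adjusted p = 0.62) and uncrushed retinas (adjusted p = 0.90). Kcnj12, a strong rectifier, had a Cre effect of 0.36 in crushed retinas (adjusted p = 0.057), and Kcnj14 one of 0.01 (adjusted p = 0.97).

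Two-pore subunits, which carry background leak currents, were measured for 10 of 14 genes, and none passed. Kcnk6 had the highest crush estimates of all members, 0.28 in Cre-positive (adjusted p = 0.17) and 0.31 in Cre-negative retinas (adjusted p = 0.15). It read -1.75, -1.42, -1.49, -1.58 and -1.31 in Cre-positive crushed retinas, against -1.77, -1.94, -1.76, -1.66 and -1.83 in Cre-positive uncrushed retinas. It read -1.49, -1.71 and -1.78 in Cre-negative crushed retinas, against -1.99, -2.08, -1.77 and -2.05 in Cre-negative uncrushed retinas, and the groups overlapped in both genotypes. Of 10 measured markers of microglia and macrophages, 8 rose with the crush in Cre-positive and 4 in Cre-negative retinas. Over all genes 0.677% and 1.33% rose. The part of these markers in the Kcnk6 values was not tested. Kcnk1, Kcnk3 and Kcnk10 had Cre-negative crush estimates of -0.13, 0.01 and -0.22, with adjusted p of 0.63, 0.99 and 0.34.

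**Figure D5:**
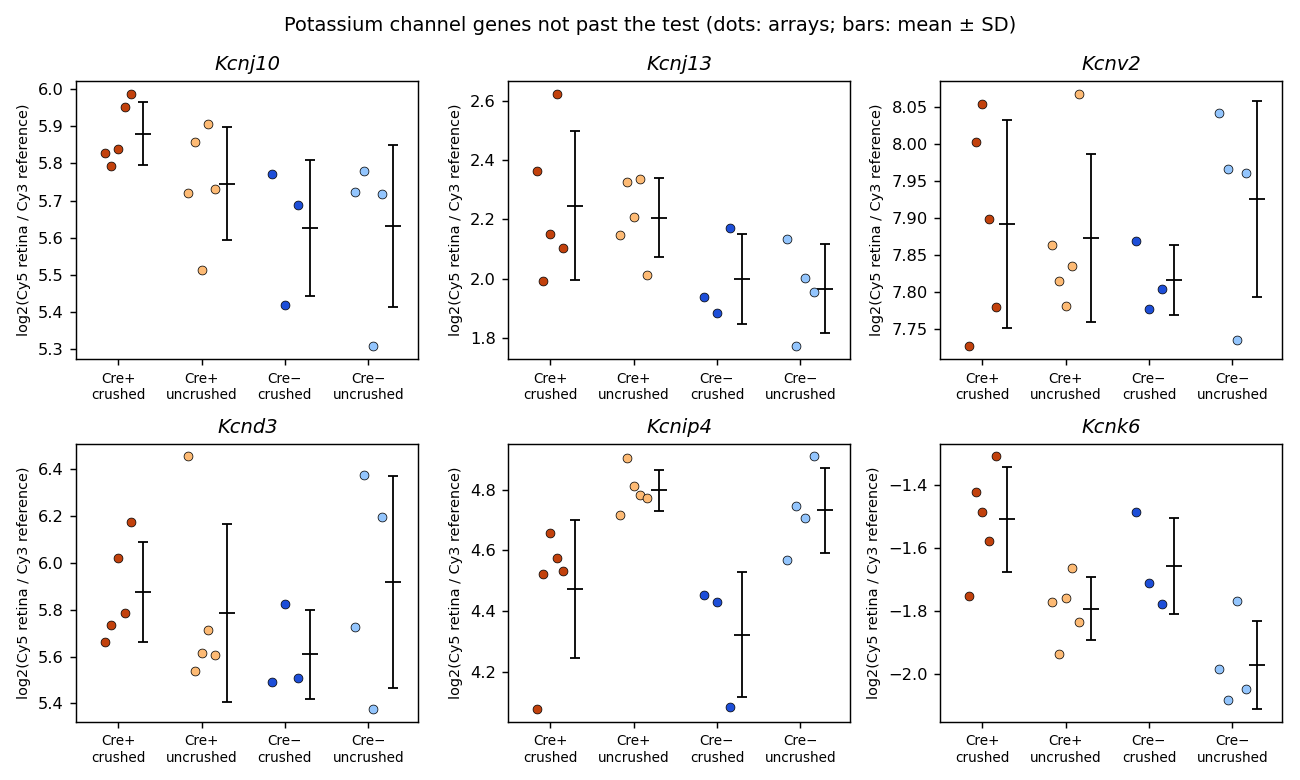
Log2 ratio of Cy5 retina over Cy3 reference on every array (dots) for 6 members that passed the test in no comparison, in the 4 groups, with bars for mean ± SD; each panel has its own vertical range. The Kcnj10 arrays of all groups lie between 5.31 and 5.99, and the Kcnk6 crushed arrays overlap the uncrushed ones in both genotypes.

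Calcium- and sodium-activated pore subunits were measured for 6 of 8 genes, and none passed. Kcnma1, the large-conductance channel, had crush estimates of 0.11 in Cre-positive (adjusted p = 0.78) and -0.23 in Cre-negative retinas (adjusted p = 0.48). Kcnt1, the sodium-activated channel, gave 0.14 (adjusted p = 0.72) and -0.27 (adjusted p = 0.38). The small-conductance subunits Kcnn2 and Kcnn3 gave -0.21 (adjusted p = 0.30) and 0.03 (adjusted p = 0.87) in Cre-negative retinas. For Kcnma1 and Kcnt1 the interaction test missed the threshold (adjusted p = 0.62 and 0.51), so opposite signs in the genotypes are not a called difference.

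Of 22 channel partners and clustering proteins 20 were measured, and 2 fell after the crush in Cre-negative retinas, where 0.794% of all genes fell. These were Lgi1, a secreted protein bound to axonal Kcna channel complexes (-0.55, adjusted p = 0.018), and Dpp10, an accessory subunit of Kcnd channels (-0.42, adjusted p = 0.042). Dpp6, its close relative, had an estimate of -0.34 (adjusted p = 0.44). Among crushed retinas Lgi1 (0.50, adjusted p = 0.037) and Cntnap2, which holds Kcna channels beside the nodes (0.35, adjusted p = 0.047), were higher in Cre-positive than in Cre-negative mice, where 0.603% of all genes were. The other channel partners missed the threshold in all 5 comparisons. Of 12 genes of potassium transport 11 were measured, and Atp1b1, a sodium pump subunit, was higher in Cre-positive than in Cre-negative crushed retinas (0.37, adjusted p = 0.024).

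Most but not all measured ganglion cell markers fell after the crush in Cre-negative retinas, as the called members did. Of 14 listed markers 13 were measured, all but Pou4f3. After the crush 3 fell in Cre-positive retinas (median -0.27), where 0.0861% of all genes fell. In Cre-negative retinas 9 fell (median -0.62, range -1.77 to 0.16), where 0.794% of all genes fell. Slc17a6 (0.16, limma adjusted p = 0.74), Stmn2, Nefm and Sncg were not called there. Between genotypes 9 were higher in Cre-positive than in Cre-negative crushed retinas, where 0.603% of all genes were. The summed linear ratio of the list spanned 242 to 263 in crushed and 305 to 328 in uncrushed retinas of Cre-positive mice. In Cre-negative mice it spanned 161 to 172 with the crush and 267 to 297 without it. Markers of high ratio, such as Nefl and Chrna6, weigh most in this sum. The mean log2 ratio, which weighs all markers alike, was 3.22 to 3.34 in crushed and 3.44 to 3.59 in uncrushed Cre-positive retinas. In Cre-negative retinas that mean was 2.55 to 2.65 when crushed and 3.33 to 3.44 when uncrushed. In whole tissue, fewer cells of a type and less RNA per cell cannot be told apart, and the part of ganglion cell number in the channel values was not tested. No rod, cone, bipolar, amacrine or vascular marker passed in any of the 5 comparisons. Among 10 Müller glia markers 1 rose (Vim) and 1 fell (Glul) after the crush in Cre-positive retinas, and 1 rose (Vim) in Cre-negative retinas. Of 4 astrocyte markers 2 rose in Cre-positive and 1 in Cre-negative retinas, Gfap in both. Over all genes 0.677% rose in Cre-positive and 1.33% in Cre-negative retinas, and 0.0861% fell in Cre-positive retinas. Among crushed retinas, 1 of 4 horizontal cell markers, Calb1, was higher in Cre-positive than in Cre-negative mice. So was 1 of 6 markers of cornea, iris and ciliary body, Myh11 (0.34, limma adjusted p = 0.032), where 0.603% of all genes were. The part of these in the channel values was not tested. Without the arrays richest in lens and in cornea markers, the same 5 members fell in Cre-negative retinas, Kcnd2 stayed the one member called in the interaction, and the Cre effect in crushed retinas called Kcnc1 besides the 4.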

How the data were processed

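Total RNA of whole mouse retina was measured on 18 two-colour Agilent arrays. Per the file headers, the deposited intensity values came from Agilent Feature Extraction 10.7.3.1, as median spot and local background intensity in each dye, not yet normalized, and as processed signals already freed of background and dye bias. The authors also deposited log2 ratios, for which the submitters' processing notes name limma; no version or setting is given in the sources used here. Their scale, centring and direction are not stated. Set against the ratios computed here, array by array, they gave a correlation of 0.999 or above and slopes of 1 to 1.02, and their medians per array were 0.015 to 0.0237.

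In R 4.3.3 with limma 3.58.1 (files read by version 1.17.8 of data.table), median intensities were corrected by normexp (offset 50), normalized by loess within each array, and averaged over spots of a probe. Outlier spots were left out (49 missing values). Probes were named through their RefSeq accession (26581 of 39429 probes, 20144 symbols), the probe with the highest mean intensity stood for each gene, and probes with Cy5 well above background on at least 3 arrays were kept. A mean per group was fitted on 17 arrays (13 residual and 4.5 prior degrees of freedom), with 5 contrasts, two-sided moderated tests and Benjamini-Hochberg adjustment over all 25553 genes within a contrast. Precision is limited by the number of arrays. The procedure was tested on simulated data.

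Genes named were those called, the 3 with the smallest adjusted p per contrast, the most changed member by crush in Cre-negative retinas of each subfamily with at least 3 members, and members with a known role in retina or axon; a few named by this rule are not reported here. Members, lists and rules were chosen with earlier results of these data known. Alternatives changed the background step, the signals, scaling between arrays, probe choice, filter, slide, array weights, the disputed array's group, and each array left out in turn. Promoter windows were matched by gene symbol. Gene positions are not given otherwise, because the array header and the reference name different builds.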

Additional observations from a re-analysis of the deposited data

Results flagged for a closer look

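The crush effect on Kcnd2 differed between genotypes by 0.914 on the log2 scale (Cre-positive minus Cre-negative; limma adjusted p = 0.0023), the one member for which that difference passed the test.

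Single arrays stood apart from the rest of their group for 10 of the 120 gene and group combinations with 4 or 5 arrays, where chance gives about 1 in 20. In Cre-positive crushed retinas, Kcnip4 was 4.076 on replicate 1, against 4.521 to 4.656 on the others. In Cre-positive uncrushed retinas, replicate 1 was low for Kcnc1 (3.409, against 3.59 to 3.662) and Kcnh1 (0.184, against 0.366 to 0.421) and high for Kcnd3 (6.456, against 5.538 to 5.714). In the same group Kcnk10 was 0.698 on replicate 2 (others 0.247 to 0.345), Kcnj12 was 2.982 on replicate 3 (others 2.619 to 2.69), and replicate 5 was high for Kcnma1 (5.192, against 5.018 to 5.065) and Kcnv2 (8.068, against 7.781 to 7.863). In Cre-negative uncrushed retinas, replicate 3 was low for Kcnh3 (-1.158, against -0.993 to -0.968) and Kcnj10 (5.307, against 5.718 to 5.78).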

How the results depend on the processing

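Across 31 alternatives, of which 1 (leaving out the arrays richest in lens and in cornea markers) was chosen after seeing the data, no called member reversed. Of the 10 calls, those of Kcnd2 and Kcns3 after crush in Cre-negative retinas held in all 31, and that of Kcnc1 in 13. Of 190 gene and comparison pairs not called, 96 changed sign in at least 1 alternative. With processed signals, the members called numbered 1 for crush in Cre-positive retinas (Kcnk6), 2 for crush in Cre-negative retinas, 0 for the interaction and 0 for the Cre effect in crushed retinas, where the main analysis called 0, 5, 1 and 4. On Cy5 alone, crush in Cre-positive retinas called 2 and the interaction 2 (Kcnd2 and Kcnj5 in each). Slide as a fixed block left 1 for the Cre effect in crushed retinas, and the correlation within slides was 0.065. The disputed array placed among Cre-negative uncrushed retinas left 2, 0 and 2 members for crush in Cre-negative retinas, the interaction and the Cre effect in crushed retinas. Placed among Cre-negative crushed retinas, it gave 8 for crush in Cre-negative retinas (7 lower and 1 higher, adding Kcnc2, Kcnip4 and Kcnk6). The cause of these shifts was not tested. Leaving out 1 array at a time gave 3 to 5 members for crush in Cre-negative retinas, 0 to 0 in Cre-positive retinas, 1 to 1 for the interaction, 2 to 5 for the Cre effect in crushed and 0 to 0 in uncrushed retinas, 9 to 11 subfamilies with a median below 0, and a Map3k12 Cre effect in uncrushed retinas of -0.502 to -0.371. Scaling between arrays (Aquantile) leaves ratios as they are by construction. The authors' ratios, used in another alternative, nearly equal those computed here, so neither could do much to change a call. All alternatives share arrays with the main fit and are not independent of it. Pairing by mouse was not possible, because the labels do not tie eyes to animals; slide is the one pairing that could be fitted. Dim spots limit the reading of Kcns3 and Kcna2, and 18 members were above background on only some arrays.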

Other observations

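The array whose title and description disagree on the crush came from a Cre-negative retina, and its log2 ratios were 3.31 for Kcnd2, 2.61 for Kcnj5, 0.88 for Kcns3, 0.83 for Kcna2, 3.33 for Kcnc1 and 3.05 for Kcnc2. For Kcnd2 this lay between the Cre-negative crushed arrays (2.80 to 3.12) and the Cre-negative uncrushed arrays (4.15 to 4.37). For Kcnj5 it lay below the Cre-negative crushed arrays (2.75 to 2.89) and the uncrushed arrays (3.15 to 3.36), and for Kcns3 within the uncrushed arrays (0.44 to 0.58 when crushed, against 0.85 to 1.10 when uncrushed). Kcnc1 and Kcnc2 lay within the crushed arrays (3.13 to 3.40 and 2.96 to 3.14) and below the uncrushed ones (3.54 to 3.69 and 3.15 to 3.52). Kcna2 lay between the crushed (0.42 to 0.80) and the uncrushed arrays (0.96 to 1.39). The array sat at position 4 of its slide, and on the other slides with a retina at that position the retina was labelled crushed. Its group was left unassigned, since the labels disagree and a group was taken only from labels.

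Of 20 members with several measured probes, the estimates for crush in Cre-negative retinas spread most for Kcnj14, from -0.40 to -0.01. Kcnq1ot1, the noncoding antisense transcript at Kcnq1, had a crush estimate of -0.13 in Cre-negative retinas (limma adjusted p = 0.72).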
